A study of Mus musculus with 9 samples.

Results

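The 35 genes described here encode the proteins that license, start and carry out DNA replication, together with 3 enzymes that make deoxynucleotides. They were chosen by name, and each is represented by its brightest probe set on average across the 9 arrays, among those that the platform annotation gives to that gene alone. All 35 were measured, out of 18193 genes tested on the arrays, and none was lost to a filter. They are the helicase subunits Mcm2 to Mcm7, the origin recognition genes Orc1 to Orc6, the licensing genes Cdc6 and Cdt1, and the helicase activators Mcm10, Cdc45 and Gins1 to Gins4. Behind the helicase come the clamp Pcna with its loader Rfc1 to Rfc5, the polymerase and primase genes Pola1, Pole, Pold1 and Prim1, the Okazaki fragment genes Fen1 and Lig1, and Rrm1, Rrm2 and Tyms.

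Total RNA of mouse cultures was measured on Affymetrix whole-genome expression arrays. There were 3 groups of 3 cultures each, given as biological replicates and all labelled C57BL/6. The first group held epiblast stem cells (EpiSCs, which stand for the primed pluripotency of the implanted embryo) with vehicle. The second held EpiSCs given IWP2, which inhibits the acyltransferase Porcupine and so keeps cells from secreting Wnt proteins. Both grew in N2B27 medium on gelatine and serum, and the medium held 20 ng/ml of Activin A plus 12 ng/ml of bFGF. The third group held embryonic stem cells (ESCs, which stand for the earlier, naive state), grown in N2B27 medium on gelatine with 1000 U/ml of LIF plus 250 ng/ml of Wnt3a. How much IWP2 was used and for how long is not stated here, nor is the number of cell lines, so the p-values measure the spread between these cultures. A protocol note also speaks of Wnt3a added to EpiSCs after IWP2, without saying for which samples. Cell type and medium changed together between EpiSCs and ESCs, so they cannot be told apart. Y-linked RNA changed with them in every ESC comparison. The mean log2 signal of Eif2s3y was 9.83 with vehicle, 9.82 with IWP2 and 2.30 in ESCs, and this difference cannot be told apart from the others either.

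A round of replication begins when the origin recognition complex, bound to chromatin, recruits Cdc6 and Cdt1, which load the ring of Mcm2 to Mcm7 onto DNA. The loaded helicase becomes active once Cdc45 and the GINS complex join it, with the help of Mcm10. Polymerase alpha and primase then lay down primers, the clamp loader sets the Pcna ring on them, polymerases epsilon and delta extend them, and Fen1 and Lig1 finish the lagging strand. Ribonucleotide reductase, made of Rrm1 and Rrm2, and thymidylate synthase supply the building blocks. Many of these genes are classical targets of E2F transcription factors, and pluripotent stem cells are known for a short G1 phase with much of the cycle spent in S phase.

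Marker genes followed the labels. The naive marker Nr0b1 had a signal of 11.91 ± 0.048 in ESCs against 3.16 ± 0.300 in EpiSCs with vehicle (mean log2 signal ± SD, n = 3). The primed marker Otx2 was at 6.84 ± 0.130 and 11.09 ± 0.032. Of 4 genes expressed in both states, Sox2 was at 12.15 ± 0.044 and 10.17 ± 0.049 and Lin28a at 7.01 ± 0.035 and 8.80 ± 0.138, and their mean per array lay at 10.09 to 10.72 in all groups. Averaged per array, 10 naive markers lay at 10.96 to 10.97 in ESCs and at 4.63 to 4.85 in both EpiSC groups. The mean of 8 primed markers was 6.50 to 6.56 in ESCs, 11.09 to 11.18 in vehicle EpiSCs and 10.16 to 10.21 in IWP2 EpiSCs. The mean of 5 neurectoderm markers lay at 6.23 to 6.39 in every group, although Six3 was lower by over 1 log2 unit with IWP2 and in ESCs while others were higher. The mean of 5 trophoblast markers lay at 4.26 to 5.55, but single markers moved far more. For ESC minus vehicle they ranged from -3.02 (Krt7) to 4.25 (Tfap2c), and with IWP2 from -3.19 (Krt7) to 0.14 (Elf5). Arrays of 1 group correlated at 0.997 to 0.998 over all probe sets. Signals are log2 values, each member has a level far above the lower quartile of all values (3.72), and levels of different genes cannot be ranked against each other because every probe set has its own response.

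Promoter windows are shown because E2F sites are a well-known feature of such genes, and sequence played no role in choosing the members. RefSeq (build GRCm38.p6) gave a window from 250 bases before the transcription start to 50 bases after it for 29 of the 35, with several starts for 5 of them. The E2F letters searched were TTTGGCGC, TTTGCCGC, TTTCGCGC and TTTCCCGC on either strand, and matches on opposite strands can overlap. At least 1 match was present for 13 of 29 members (44.8%), against 2.60% of all 27025 genes with such a window and 3.81% of the 14452 of them tested on the arrays. The 13 were Mcm3, Mcm5, Mcm6, Mcm7, Orc1, Orc3, Cdc6, Cdt1, Gins3, Rfc3, Pola1, Pold1 and Lig1. Windows are printed as examples for 7 of the 13, and for Cdc45 and Rfc5, which changed too and had no match. Values of members without a printed window, such as Lig1 and Gins3, are also described further on. The E2F letters are in capitals, each window runs 5′ to 3′ along the gene, and positions count from 1 at the first transcribed base and from -1 just before it.
Cdc6, chr11:98907901-98908200, plus strand: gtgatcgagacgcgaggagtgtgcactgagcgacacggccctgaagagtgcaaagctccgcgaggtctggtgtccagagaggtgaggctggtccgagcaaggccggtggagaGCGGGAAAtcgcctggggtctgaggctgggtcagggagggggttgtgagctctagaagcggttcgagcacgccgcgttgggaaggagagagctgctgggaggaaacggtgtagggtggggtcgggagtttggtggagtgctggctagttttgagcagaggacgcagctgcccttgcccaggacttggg
Cdt1, chr8:122567765-122568064, plus strand: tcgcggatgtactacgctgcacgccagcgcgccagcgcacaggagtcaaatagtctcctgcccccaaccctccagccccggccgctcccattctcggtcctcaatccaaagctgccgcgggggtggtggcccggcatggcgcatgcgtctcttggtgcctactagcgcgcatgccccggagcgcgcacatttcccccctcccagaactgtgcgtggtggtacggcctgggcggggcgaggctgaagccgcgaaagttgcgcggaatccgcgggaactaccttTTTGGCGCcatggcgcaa
Mcm3, chr1:20820263-20820562, minus strand: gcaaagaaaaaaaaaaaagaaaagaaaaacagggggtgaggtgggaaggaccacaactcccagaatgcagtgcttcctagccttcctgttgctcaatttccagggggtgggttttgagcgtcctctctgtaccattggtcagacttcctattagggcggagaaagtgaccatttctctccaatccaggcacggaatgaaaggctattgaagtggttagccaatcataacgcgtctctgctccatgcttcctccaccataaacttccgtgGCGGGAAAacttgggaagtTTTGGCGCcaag
Mcm5, chr8:75109259-75109558, plus strand: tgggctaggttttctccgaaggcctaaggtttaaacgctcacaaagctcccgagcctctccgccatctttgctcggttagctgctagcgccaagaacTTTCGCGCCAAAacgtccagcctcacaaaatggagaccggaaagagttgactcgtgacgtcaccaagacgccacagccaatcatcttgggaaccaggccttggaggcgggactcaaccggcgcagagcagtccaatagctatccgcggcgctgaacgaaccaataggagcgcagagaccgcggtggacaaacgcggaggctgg
Orc1, chr4:108579204-108579503, plus strand: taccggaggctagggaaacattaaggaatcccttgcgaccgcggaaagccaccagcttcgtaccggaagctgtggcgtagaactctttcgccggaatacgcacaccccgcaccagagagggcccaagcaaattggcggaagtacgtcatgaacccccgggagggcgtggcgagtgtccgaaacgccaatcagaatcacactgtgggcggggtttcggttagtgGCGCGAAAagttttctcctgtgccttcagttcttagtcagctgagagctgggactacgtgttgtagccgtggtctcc
Pola1, chrX:93632106-93632405, minus strand: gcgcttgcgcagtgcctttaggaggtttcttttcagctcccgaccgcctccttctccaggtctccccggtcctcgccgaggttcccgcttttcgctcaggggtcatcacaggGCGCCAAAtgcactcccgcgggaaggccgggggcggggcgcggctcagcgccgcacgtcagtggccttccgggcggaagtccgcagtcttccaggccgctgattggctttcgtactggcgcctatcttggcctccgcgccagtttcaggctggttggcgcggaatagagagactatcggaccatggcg
Pold1, chr7:44548766-44549065, minus strand: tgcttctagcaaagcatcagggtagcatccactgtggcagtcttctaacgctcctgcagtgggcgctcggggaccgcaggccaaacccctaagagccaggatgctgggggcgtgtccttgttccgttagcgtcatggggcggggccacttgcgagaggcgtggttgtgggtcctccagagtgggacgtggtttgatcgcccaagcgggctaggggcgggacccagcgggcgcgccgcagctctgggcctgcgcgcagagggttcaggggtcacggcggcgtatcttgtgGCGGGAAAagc
Cdc45, chr16:18811923-18812222, minus strand: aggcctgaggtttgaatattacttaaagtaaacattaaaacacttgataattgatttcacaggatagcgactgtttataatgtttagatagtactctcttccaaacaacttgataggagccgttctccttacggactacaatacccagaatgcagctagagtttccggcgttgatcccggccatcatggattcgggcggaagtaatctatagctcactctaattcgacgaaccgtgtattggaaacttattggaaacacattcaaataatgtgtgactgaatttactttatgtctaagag
Rfc5, chr5:117388974-117389273, minus strand: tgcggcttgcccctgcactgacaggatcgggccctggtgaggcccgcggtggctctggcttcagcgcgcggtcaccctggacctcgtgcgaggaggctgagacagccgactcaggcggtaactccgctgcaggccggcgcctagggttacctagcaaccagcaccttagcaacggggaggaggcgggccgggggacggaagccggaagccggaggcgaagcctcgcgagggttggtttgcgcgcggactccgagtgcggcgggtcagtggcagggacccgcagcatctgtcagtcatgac
In Cdc6 the match stood at -138 to -131, in Pola1 also at -138 to -131 and in Orc1 at -27 to -20. Those of Cdt1 (33 to 40) and Pold1 (40 to 47) lay within the transcribed part, as did both of Mcm3 (20 to 27 and 39 to 46). The 2 matches of Mcm5, from -153 to -142, overlapped on opposite strands. The cell cycle homology letters TTTGAA, known from genes of the later cell cycle, were in 4 of 29 members (13.8%) and in 20.2% of all windows. Among the genes tested their share was 15.7%, close to that of the members. CCAAT was in 65.5% of members and 41.1% of all windows, and the GC box GGGCGG in 72.4% and 38.2%, or 57.3% among the genes tested. A match is a run of letters and no evidence of binding.

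The first comparison asked what blocking Wnt secretion did to replication genes in EpiSCs. Small rises prevailed. Limma called 16 of the 35 members higher with IWP2 and 2 lower at an adjusted p under 0.05 (Benjamini-Hochberg over 18193 genes), and 17 were not called. Calls here follow that rule, except those of further probe sets, which come from a separate fit over all 34945 probe sets with 1 symbol, with standard errors and adjusted p-values of its own. In that fit the IWP2 calls of Mcm7, Gins4 and Rfc1 (limma adjusted p = 0.0702, 0.0663 and 0.0556) and the ESC minus vehicle call of Rfc1 (0.0527) were not reached. Calls in either direction made up 51.4% of members and 33.5% of all genes. Higher were 45.7% of members, against 16.6% of all genes tested and 22.0% of the 11918 genes with a group mean at or above the median signal of 5.24. Members lower made up 5.71%, against 16.8% and 23.0%. The median difference of the members was 0.14 log2, that of all genes 0.03, and 26 of 35 members lay above the latter. Pold1 was the only member to change by 0.5 log2 or more, as did 11.5% of all genes, and 0 members changed 2-fold.

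The arrays of both EpiSC groups did not overlap for 24 of 35 members, against 47.0% of all genes. Without IWP2 replicate 1, 10 members were called higher and 1 lower. Of the 18 calls, 9 held in each of 9 fits that left out 1 array and in 10 other settings, namely those of Pold1, Cdc45, Cdc6, Cdt1, Rrm1, Rfc4, Gins2, Pole and Orc2. The calls of Mcm3, Mcm5, Mcm7, Orc4, Gins4, Rfc1, Rfc5, Lig1 and Rrm2 ended in at least 1 of them. Markers of other cells and of pluripotent cells moved with the treatment. Of 7 definitive endoderm markers, 6 were lower and 0 higher, of 6 primitive streak genes 3 and 1, and of 8 fibroblast genes 4 and 2, beside 16.8% and 16.6% of all genes. Beside the same shares, 4 of 8 primed markers were lower and 2 higher, of 4 genes of both states 3 and 1, and of 10 naive markers 3 and 2. The mean of 7 definitive endoderm markers was 8.01 to 8.17 on vehicle arrays and 4.10 to 4.31 on IWP2 arrays, with 0 and 1 of the 7 below the lower quartile of all values as a group mean. Those of 6 primitive streak genes were 6.34 to 6.77 and 4.53 to 4.74, and of 8 fibroblast genes 5.47 to 5.79 and 4.88 to 5.03. The actin control probe sets differed between their 3' and 5' ends by 0.53 to 0.59 log2 on vehicle arrays and by 0.64 to 0.69 on IWP2 arrays. The part of these in the replication genes was not tested, and in bulk RNA fewer cells of a type and less RNA per cell cannot be told apart.

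**Figure D1:**
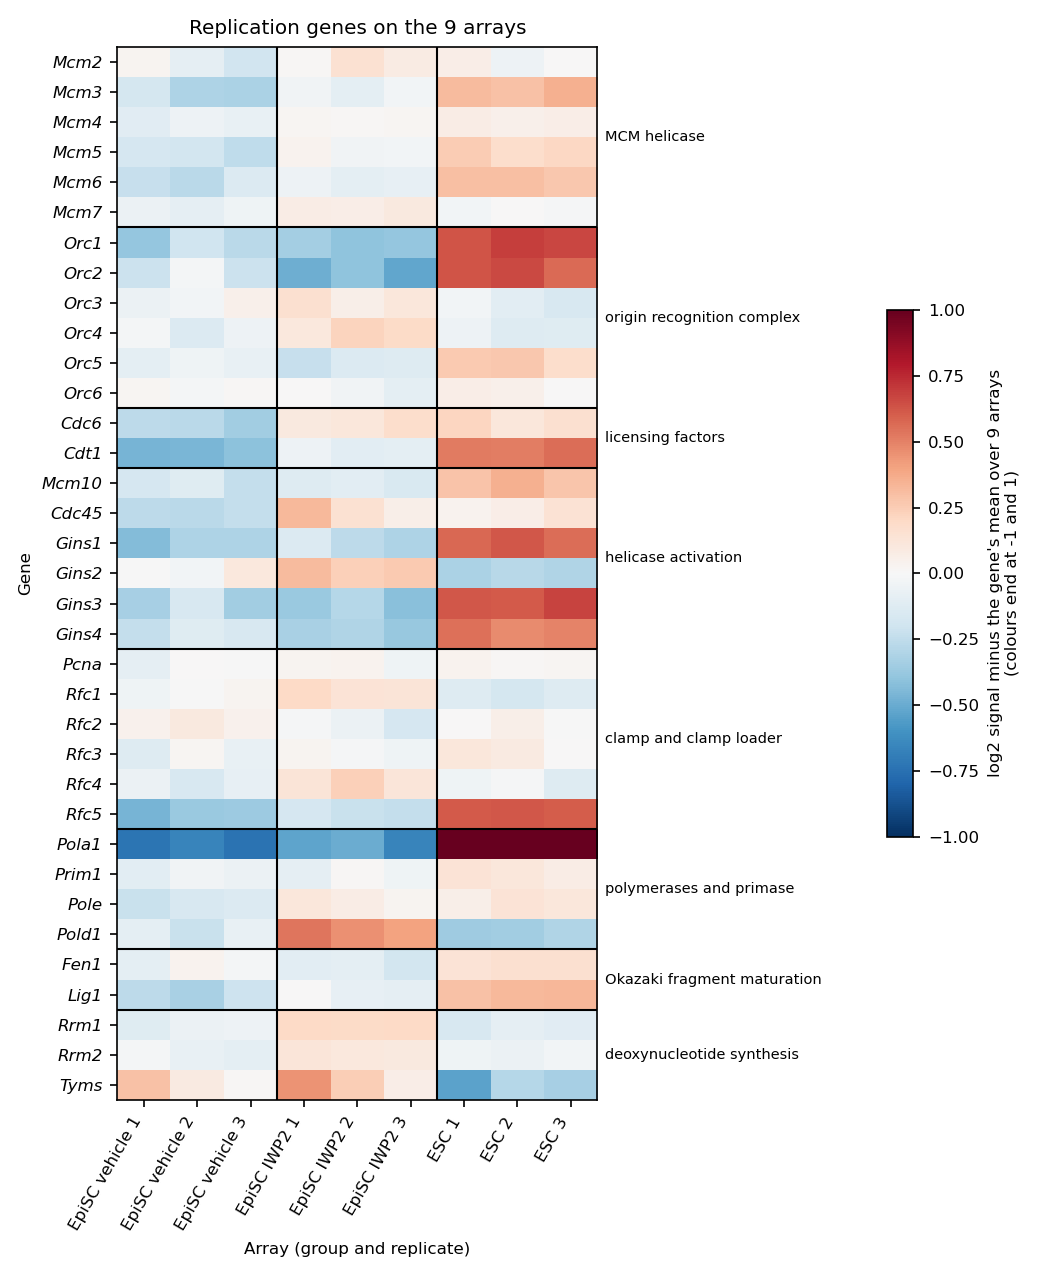
Each row is a replication gene and each column an array, with colour giving the log2 signal minus that gene's mean over the 9 arrays (colours end at -1 and 1). Vehicle columns are mostly blue, with all 3 vehicle arrays below the other 6 for 11 genes, and ESC columns are the reddest, with all 3 ESC arrays above the other 6 for 17 genes.

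The second comparison, of ESCs with vehicle EpiSCs, gave 20 members higher in ESCs, 4 lower and 11 not called, so that 68.6% were called against 66.6% of all genes. The largest difference was that of Pola1, nearly 2 log2 units, and Rfc5 was the other member to reach 2-fold. Of the members 57.1% were higher, against 38.7% of all genes and 38.2% of those with a group mean at or above the median signal. The 11.4% that were lower compare with 27.9% and 39.2%. Differences of 0.5 log2 or more were found for 11 higher members and 1 lower, Tyms, and for 33.9% of all genes. The arrays did not overlap for 26 members, against 71.0% of all genes. The median of the members was 0.18 log2 and that of all genes 0.12, with 21 of 35 members above the latter. With each array centred on its median, the median of all genes rose by 0.12 to 0.24 and the share of calls that were higher went from 58.1% to 69.5%. In that scaling 27 members were higher and 2 lower, and 22 and 1 with IWP2, where the share of higher calls went from 49.7% to 67.0%. Without vehicle replicate 3 the count of lower members was 2. In ESCs the endoderm markers averaged 4.44 to 4.59, the primitive streak genes 4.73 to 4.80 and the fibroblast genes 4.38 to 4.43 per array, below their vehicle values, and the actin ends differed by 0.64 to 0.66. The part of these in the ESC differences was not tested.

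Set against IWP2-treated EpiSCs, ESCs had 16 members higher, 9 lower and 10 not called, or 71.4% called against 62.1% of all genes. The shares were 45.7% higher, against 35.2% of all genes and 39.1% of those with a group mean at or above the median signal, and 25.7% lower, against 26.9% and 38.2%. The median of the members was 0.08 log2, against 0.10 for all genes and 0.02 for the genes at or above the median signal. Pola1, Orc2 and Orc1 were at least 2-fold higher, and Gins2, Pold1 and Tyms were lower by 0.5 log2 or more. In all 11 members were called with a difference of that size, as were 35% of all genes. The arrays did not overlap for 28 members, against 67.1% of all genes. The 3 comparisons share arrays pairwise, so their counts are not independent.

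**Figure D2:**
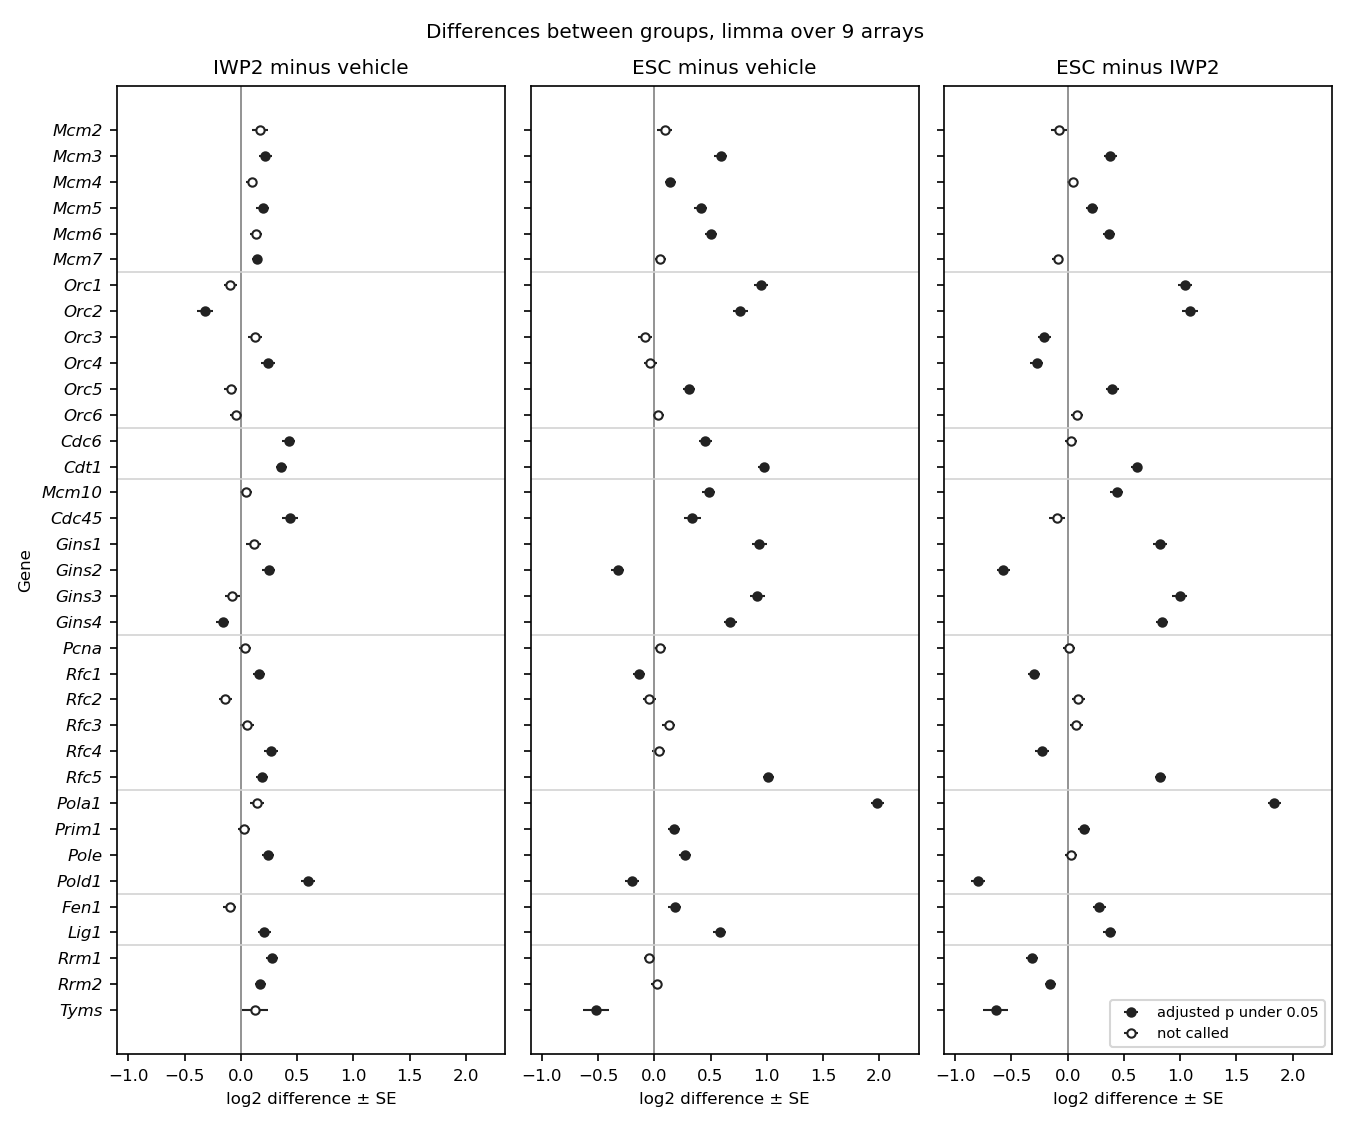
The panels show, for each replication gene, the log2 difference between groups with its standard error, filled where limma's adjusted p is under 0.05. With IWP2 the points lie mostly just right of 0 and Pold1 is farthest right. In the ESC panels Pola1 is near 2 while Pold1, Gins2 and Tyms lie left of 0.

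Differences of the helicase subunits were small with IWP2 and wider in ESCs, and none of the 6 was called lower. Mcm3 was at 10.85, 10.72 and 10.71 on the vehicle arrays, 10.99, 10.93 and 11.00 on the IWP2 arrays and 11.35, 11.32 and 11.39 on the ESC arrays. Its ESC arrays were the highest, its vehicle arrays the lowest, and no groups overlapped. The differences were 0.22 ± 0.058 with IWP2 and 0.59 ± 0.058 for ESC minus vehicle (limma adjusted p = 0.0171 and 8.79e-06), and 4 further Mcm3 probe sets gave 0.18 to 0.23 and 0.21 to 0.67. Mcm5 rose by 0.19 and Mcm7 by 0.14 with IWP2. The Mcm7 call ended in each of the 9 fits without 1 array and with the replicate block, and 3 further Mcm7 probe sets (0.09 to 0.11) were not called. Mcm2 (0.17), Mcm4 (0.10) and Mcm6 (0.14) had differences of like size that were not called. In ESCs, Mcm6 (0.50), Mcm5 (0.41) and Mcm4 (0.14) were higher than in vehicle EpiSCs, although the Mcm4 call ended in 4 of 9 fits without 1 array. Mcm2 (0.09) and Mcm7 (0.05) were not called. For Mcm2 the dimmer of its 2 probe sets gave 0.18 and 0.19 in these comparisons, and both were called on that probe set. The ring has 1 copy of each subunit, and the 6 differences for ESC minus vehicle ranged from 0.05 to 0.59.

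The subunits of the origin recognition complex divided. Orc1, which with Orc4 and Orc5 belongs to the ATP-binding family of subunits, was at 8.49, 8.67 and 8.60 on the vehicle arrays, 8.53, 8.46 and 8.49 on the IWP2 arrays and 9.50, 9.56 and 9.54 on the ESC arrays. The EpiSC groups overlapped and the ESC arrays stood above both, with a difference of 0.95 ± 0.061 from vehicle (limma adjusted p = 3.39e-07). Orc2 was at 9.27, 9.45 and 9.27 on the vehicle arrays, 8.99, 9.07 and 8.96 on the IWP2 arrays and 10.10, 10.14 and 10.04 on the ESC arrays. It was the largest fall of a member with IWP2, -0.32 ± 0.068 (adjusted p = 0.00502), and it was higher in ESCs by 0.77 over vehicle and 1.09 over IWP2. All 3 Orc2 probe sets fell with IWP2, the others by 0.29 and 0.31. Orc5 was higher in ESCs (0.31 over vehicle and 0.40 over IWP2), and Orc3 was lower in ESCs than with IWP2 (-0.21). That Orc3 call ended with the mean of all probe sets (-0.09), and dimmer Orc3 probe sets gave -0.24 and 0.18. Orc6 was not called in any comparison (-0.04, 0.04 and 0.08).

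Orc4 depended on the probe set. On its brightest one it was at 9.43, 9.31 and 9.40 on the vehicle arrays, 9.56, 9.67 and 9.64 on the IWP2 arrays and 9.39, 9.32 and 9.33 on the ESC arrays, a difference of 0.24 ± 0.059 with IWP2 (limma adjusted p = 0.0107) and of -0.28 for ESC minus IWP2. Dimmer Orc4 probe sets, with means of 7.07 and 6.79, gave -0.19 and -0.21 with IWP2, of which the second was called. The mean of all 4 was -0.03 and not called, so no direction is given for Orc4 as a gene, although the counts include it by its brightest probe set. It was the only member with probe sets called in opposite directions in any comparison. In the fit over probe sets, 46 further ones belonged to 27 members. Of these, 13 repeated the IWP2 call of the brightest, 7 were not called where it was, 1 (of Orc4) was called the other way, and 25 belonged to members whose brightest probe set was not called in that fit, Mcm7 and Rfc1 among them.

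The licensing factors were both higher in IWP2-treated EpiSCs and in ESCs than in vehicle EpiSCs. Cdt1 was at 11.01, 11.01 and 11.07 on the vehicle arrays, 11.42, 11.37 and 11.37 on the IWP2 arrays and 11.99, 11.98 and 12.04 on the ESC arrays. The groups formed 3 separate steps, with vehicle lowest and ESCs highest, at differences of 0.36 ± 0.050 with IWP2 and 0.97 ± 0.050 for ESC minus vehicle (limma adjusted p = 0.000458 and 6.56e-08). In linear terms ESCs had 1.96 times the vehicle signal. Cdc6, an ATPase that works with Cdt1, was at 9.25, 9.24 and 9.16 on the vehicle arrays, 9.61, 9.62 and 9.69 on the IWP2 arrays and 9.72, 9.63 and 9.67 on the ESC arrays. It rose by 0.42 ± 0.055 with IWP2 (limma adjusted p = 0.000279), ESCs stood 0.46 above vehicle, and the IWP2 and ESC arrays overlapped (difference 0.03 ± 0.055, adjusted p = 0.636).

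**Figure D3:**
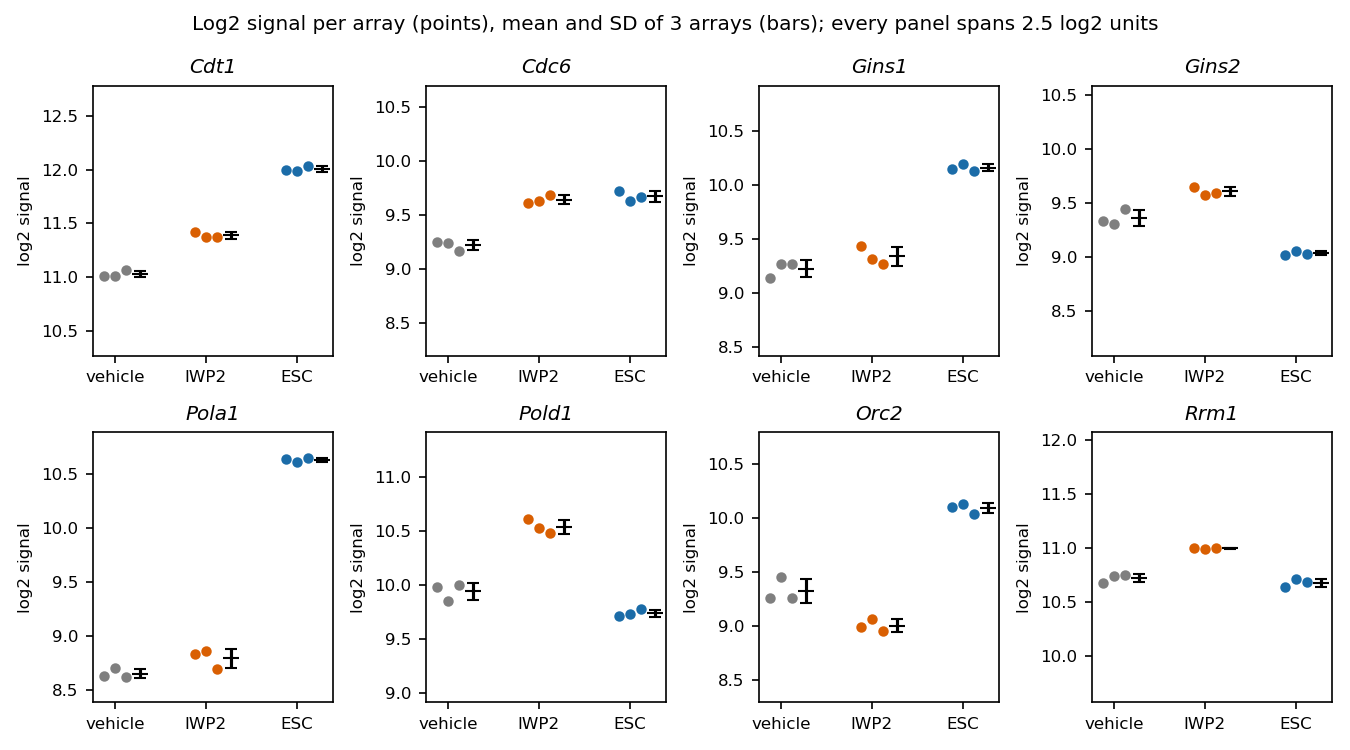
Points are the log2 signals of single arrays for 8 replication genes, with the mean and SD of 3 arrays beside them, and every panel spans 2.5 log2 units. Cdt1 steps up from vehicle to IWP2 to ESC, Gins2, Pold1 and Rrm1 are highest with IWP2, and Pola1 is apart in ESCs.

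Among the helicase activators, the GINS subunits parted. The 4 subunits form 1 complex. Gins2 was at 9.34, 9.31 and 9.45 on the vehicle arrays, 9.65, 9.58 and 9.60 on the IWP2 arrays and 9.02, 9.06 and 9.03 on the ESC arrays. Its ESC arrays were the lowest and its IWP2 arrays the highest, with 0.25 ± 0.056 for IWP2, -0.33 ± 0.056 for ESC minus vehicle and -0.57 ± 0.056 for ESC minus IWP2 (limma adjusted p = 0.00749, 0.000554 and 8.31e-06). Its second probe set gave 0.21, -0.31 and -0.52.

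The partners of Gins2 went the other way in ESCs. Gins1 was at 9.14, 9.27 and 9.27 on the vehicle arrays, 9.44, 9.31 and 9.27 on the IWP2 arrays and 10.15, 10.20 and 10.13 on the ESC arrays, which put ESCs 0.93 ± 0.065 above vehicle. Gins3 was at 6.86, 7.03 and 6.85 on the vehicle arrays, 6.82, 6.91 and 6.77 on the IWP2 arrays and 7.82, 7.81 and 7.87 on the ESC arrays, and was 0.92 ± 0.067 higher in ESCs than in vehicle EpiSCs. For both genes the EpiSC groups overlapped and the ESC arrays lay above them. Gins4 was at 9.29, 9.41 and 9.37 on the vehicle arrays, 9.20, 9.23 and 9.15 on the IWP2 arrays and 10.08, 10.001 and 10.02 on the ESC arrays. It was 0.68 ± 0.055 higher in ESCs than with vehicle and fell by 0.16 with IWP2 (limma adjusted p = 0.0466), a call that 8 of 9 fits without 1 array did not keep.

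Cdc45, the third component of the active helicase, was at 7.99, 7.97 and 8.01 on the vehicle arrays, 8.57, 8.40 and 8.31 on the IWP2 arrays and 8.28, 8.31 and 8.39 on the ESC arrays. Vehicle arrays were the lowest, and IWP2 and ESC arrays overlapped. It rose by 0.44 ± 0.072 with IWP2 (limma adjusted p = 0.00122) and was 0.34 ± 0.072 higher in ESCs than with vehicle. The dimmer Cdc45 probe set, at a mean of 5.79, gave -0.10 with IWP2, and the mean of both gave 0.23 for ESC minus IWP2, where the brighter one gave -0.10. Mcm10 was 0.48 higher in ESCs than with vehicle and was not called with IWP2 (0.05).

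The clamp was called in none of the 3 comparisons. Pcna was at 13.02, 13.12 and 13.11 on the vehicle arrays, 13.14, 13.15 and 13.07 on the IWP2 arrays and 13.14, 13.13 and 13.13 on the ESC arrays, the highest signals of the 35 genes, and its differences of 0.04 ± 0.053, 0.05 ± 0.053 and 0.01 ± 0.053 did not pass (limma adjusted p = 0.629, 0.405 and 0.837). Signals this high can be compressed. Its loader had members in both directions. Rfc5, a small subunit of the loader, was at 10.08, 10.17 and 10.18 on the vehicle arrays, 10.38, 10.32 and 10.31 on the IWP2 arrays and 11.16, 11.17 and 11.15 on the ESC arrays, the second largest ESC minus vehicle difference of a member at 1.01 ± 0.052 (limma adjusted p = 6.81e-08).

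Other loader subunits were highest with IWP2. Rfc4 was at 10.06, 9.95 and 10.03 on the vehicle arrays, 10.25, 10.35 and 10.24 on the IWP2 arrays and 10.07, 10.10 and 9.99 on the ESC arrays. It rose by 0.27 ± 0.060 with IWP2, and the vehicle and ESC arrays overlapped. Rfc1, the large subunit, was at 10.06, 10.10 and 10.13 on the vehicle arrays, 10.31, 10.24 and 10.23 on the IWP2 arrays and 9.97, 9.93 and 9.98 on the ESC arrays. IWP2 arrays were the highest and ESC arrays the lowest, with 0.16 ± 0.052 for IWP2 and -0.30 ± 0.052 for ESC minus IWP2. The Rfc1 calls for IWP2 and for ESC minus vehicle (-0.14) ended in most fits without 1 array and with the replicate block. That for ESC minus IWP2 held in each of them. Rfc2 (-0.14, -0.04 and 0.10) and Rfc3 (0.05, 0.13 and 0.08) were not called in the 3 comparisons.

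The catalytic polymerase subunits held the largest differences. Pola1, the catalytic subunit of polymerase alpha, was at 8.63, 8.70 and 8.62 on the vehicle arrays, 8.83, 8.86 and 8.70 on the IWP2 arrays and 10.64, 10.61 and 10.65 on the ESC arrays. EpiSC groups overlapped, and each ESC array was above 10. ESCs exceeded vehicle by 1.98 ± 0.060, 3.95 times on the linear scale, and IWP2 by 1.84 ± 0.060 (limma adjusted p = 1.25e-09 and 1.98e-09), while IWP2 minus vehicle was 0.14 ± 0.060 (adjusted p = 0.0945). Prim1, a subunit of the primase that works with it, was higher in ESCs by 0.17 ± 0.053 over vehicle, and IWP2 minus vehicle was 0.03 ± 0.053, not called. The Prim1 call in ESCs (limma adjusted p = 0.0156) ended without vehicle replicate 1 or ESC replicate 1.

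Pold1, the catalytic subunit of polymerase delta, had the opposite order. It was at 9.98, 9.85 and 9.995 on the vehicle arrays, 10.61, 10.53 and 10.48 on the IWP2 arrays and 9.71, 9.73 and 9.78 on the ESC arrays. The IWP2 arrays stood above all others and the ESC arrays below. The rise of 0.60 ± 0.062 with IWP2 was the largest of a member (limma adjusted p = 6.38e-05), 1.51 times on the linear scale, and ESC minus IWP2 was -0.80 ± 0.062 (adjusted p = 1.33e-06). A second Pold1 probe set gave 0.61 and -0.72. The smaller difference of -0.20 ± 0.062 between ESC and vehicle was not called on that second probe set. Pole, the catalytic subunit of polymerase epsilon, rose by 0.24 ± 0.054 with IWP2 and was 0.27 ± 0.054 higher in ESCs than with vehicle. IWP2 and ESC arrays overlapped for Pole.

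Of the genes that finish the lagging strand, Lig1, the ligase that joins Okazaki fragments, was at 10.53, 10.47 and 10.59 on the vehicle arrays, 10.80, 10.71 and 10.70 on the IWP2 arrays and 11.09, 11.12 and 11.13 on the ESC arrays. The 3 groups formed separate steps, 0.21 ± 0.056 for IWP2 and 0.58 ± 0.056 for ESC minus vehicle (limma adjusted p = 0.0169 and 7.77e-06). Fen1, the flap endonuclease, was higher in ESCs by 0.18 over vehicle and 0.28 over IWP2, and was not called with IWP2 (-0.10).

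The 3 deoxynucleotide enzymes were the role with 0 members higher in ESCs in either comparison. Of all genes 38.7% were higher in ESCs than with vehicle and 35.2% than with IWP2, so 0 of 3 genes says little. Rrm1, the large subunit of ribonucleotide reductase, was at 10.68, 10.73 and 10.75 on the vehicle arrays, 10.99, 10.99 and 11.00 on the IWP2 arrays and 10.64, 10.71 and 10.68 on the ESC arrays. IWP2 arrays were the highest, and vehicle and ESC arrays overlapped, with 0.28 ± 0.050 for IWP2 and -0.32 ± 0.050 for ESC minus IWP2 (limma adjusted p = 0.00226 and 0.0003). Rrm2, the small subunit, followed with 0.17 and -0.15, although these calls ended in 5 and 4 of the 9 fits without 1 array. Tyms, which makes thymidylate, was at 6.41, 6.20 and 6.13 on the vehicle arrays, 6.56, 6.36 and 6.18 on the IWP2 arrays and 5.58, 5.83 and 5.78 on the ESC arrays. These are the lowest signals of the 35 genes and the most scattered between replicates. ESC minus vehicle was -0.52 ± 0.113 and ESC minus IWP2 -0.64 ± 0.113 (limma adjusted p = 0.00255 and 0.000641). The first was not called for the mean of the 4 Tyms probe sets, of which the other 3 lay at 3.07 to 4.49.

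Read by group, vehicle EpiSCs were the lower end for many members and the upper end for none. All 3 vehicle arrays were below the other 6 for 11 members (31.4%, against 10.8% of all genes) and above them for 0 (against 10.7%). The 11 were Mcm3, Mcm4, Mcm5, Mcm6, Mcm7, Cdc6, Cdt1, Cdc45, Rfc5, Pole and Lig1. IWP2 arrays were the highest for 9 members (25.7%, against 13.5%) and the lowest for 5 (14.3%, against 12.1%). ESC arrays were the highest for 17 (48.6%, against 31.1%) and the lowest for 4 (11.4%, against 23.4%). The 9 highest with IWP2 were Mcm7, Orc3, Orc4, Gins2, Rfc1, Rfc4, Pold1, Rrm1 and Rrm2, and the 4 lowest in ESCs were Gins2, Rfc1, Pold1 and Tyms. All were placed by their brightest probe sets, and no other probe set of Orc3 or Orc4 was highest with IWP2. Dimmer Orc3 probe sets gave -0.15 and -0.27 with IWP2, of which the second was called (limma adjusted p = 0.0357). Other placements also changed with the probe set, by group mean. Further Mcm7 probe sets were highest in ESCs (11.17 and 10.87, against 11.15 and 10.83 with IWP2), and another was highest with IWP2 (11.51). The dimmer Cdc45 probe set was lowest with IWP2 (5.57, against 5.67 with vehicle). Some dim probe sets of Mcm6, Cdt1 and Tyms had another lowest group too.

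The promoter letters and the ESC differences can be set side by side. Among the 13 members with E2F letters, 9 were higher and 1 lower for ESC minus vehicle, with a median of 0.50 log2 and a range of -0.20 to 1.98. Of all 550 genes tested that have the letters, 38.7% were higher and 32.2% lower, with a median of 0.06, and of all genes tested 38.7% and 27.9%. Among 16 members with a window but no such letters, 7 were higher and 2 lower, with a median of 0.07 and a range of -0.52 to 1.01. The difference between the members with and without the letters was not tested. With IWP2 both medians were 0.14, with 7 of 13 and 7 of 16 higher, beside 22.9% of the 550 genes. The Pold1 and Cdt1 windows printed above both hold the letters after the start, and the 2 genes differed in direction for ESC minus vehicle. None of Rrm1, Rrm2 and Tyms had the letters in its window.

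Of 25 other genes of the fork, 10 rose (40.0%, against 16.6% of all genes) and 0 fell (against 16.8%) with IWP2, with a median of 0.10 log2. Pold4 (0.63 ± 0.089) and Pold2 (0.59 ± 0.076), accessory subunits of polymerase delta, had the largest rises. Pold3, of the same polymerase, was not called with IWP2 (-0.015 ± 0.088). Timeless, a fork protection gene, rose by 0.37. In ESCs 15 of 25 were higher than with vehicle and 7 lower, beside 38.7% and 27.9% of all genes. The share that was lower was thus close to that of all genes. Chtf18, of an alternative clamp loader, was higher by 1.34, Rnaseh2b by 1.17 and the primase subunit gene Prim2 by 1.07. Lower were Pclaf (-1.69), which encodes a Pcna-binding protein, Pold3 (-1.03) and Rpa3 (-0.79), the small subunit of the single-strand binding protein. Against IWP2, 12 were higher and 9 lower (48.0% and 36.0%, against 35.2% and 26.9% of all genes), with Pole4 at 1.10 and Pclaf at -2.04.

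Of 14 other licensing and firing genes, 5 rose and 2 fell with IWP2 (35.7% and 14.3%, against 16.6% and 16.8% of all genes). Among those that rose were Mcm8 (0.45), the kinase gene Cdc7 (0.33) and Ticrr (0.33), which encodes a factor for loading Cdc45. Mcm9 (-0.26) and Recql (-0.23) fell. In ESCs 6 were higher than with vehicle and 4 lower (42.9% and 28.6%, against 38.7% and 27.9% of all genes). Ticrr was higher by 1.91 ± 0.056 and Rif1 by 0.86, and Mcm8 (-0.88), Cdc7 (-0.64) and Donson (-0.35) were lower. Mcm8 and Cdc7 were thus highest with IWP2 and lowest in ESCs, the order also seen for Pold1 and Gins2. Against IWP2, 7 of 14 were higher and 5 (35.7%) lower, beside 35.2% and 26.9% of all genes. Of genes with a group mean at or above the median signal, 39.1% were higher and 38.2% lower.

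Nucleotide genes went in both directions. Of 19 measured of 20 listed thymidylate and deoxynucleotide genes, 3 rose and 4 fell with IWP2 (15.8% and 21.1%), near the 16.6% and 16.8% of all genes. In ESCs 3 were higher and 9 lower than with vehicle (15.8% and 47.4%, against 38.7% and 27.9%). Mthfd1, a folate enzyme, rose by 0.46 with IWP2 and was lower in ESCs than with IWP2 (-1.05). Dtymk, thymidylate kinase, fell by 0.49 with IWP2 and was 0.52 higher in ESCs than with vehicle, and Shmt1 was 1.32 higher. Mthfd2 (-0.95), Rrm2b (-0.76), an alternative small subunit of ribonucleotide reductase, and Dut (-0.70) were lower in ESCs. Of 19 purine and pyrimidine synthesis genes, 4 rose and 2 fell with IWP2 (21.1% and 10.5%). In ESCs 11 of them were higher and 4 lower than with vehicle (57.9% and 21.1%). Prps1, which makes the sugar precursor, rose by 0.60 ± 0.049 with IWP2 and was 1.23 higher in ESCs, and Hprt, of purine salvage, was 1.02 higher.

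Genes that rebuild chromatin behind the fork and those of the replication checkpoint were mostly higher in ESCs. Of 8 measured of 10 chromatin assembly genes, 7 were higher (87.5%, against 38.7% of all genes) and 0 lower (against 27.9%) than with vehicle. Asf1b was at 1.002 and Supt16 at 0.94, whereas 1 rose and 1 fell with IWP2 (12.5% each, against 16.6% and 16.8%). Of 10 checkpoint genes, 7 were higher in ESCs (70.0%) and 0 lower, including Etaa1 (0.63) and Chek1 (0.52). With IWP2 4 rose (40.0%), the kinase gene Atr (0.44) the most, and Hus1 fell by 0.33.

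Among 13 E2F and pocket protein genes, 3 rose and 4 fell with IWP2 (23.1% and 30.8%, against 16.6% and 16.8% of all genes). Rb1, the retinoblastoma gene, rose by 0.93 ± 0.098, Tfdp2 by 0.52 and E2f8 by 0.29, and E2f6 (-0.47), E2f3 (-0.37) and E2f5 (-0.33) fell. In ESCs 6 were higher than with vehicle and 5 lower (46.2% and 38.5%, against 38.7% and 27.9% of all genes). The pocket protein gene Rbl2 was higher by 2.25 ± 0.128, E2f1 by 0.86 and E2f8 by 0.83, and E2f5 (-1.24), E2f7 (-0.93) and E2f6 (-0.84) were lower.

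Mitosis genes offer the nearest comparison. With IWP2, 17 of 24 measured mitosis and spindle genes rose and 0 fell (70.8% higher, against 16.6% of all genes). Their median was 0.27 log2, with Ccnb2 at 0.65, Mki67 at 0.56 and Prc1 at 0.53. In ESCs 7 were higher than with vehicle and 10 lower (29.2% and 41.7%, against 38.7% and 27.9% of all genes). Of genes with a group mean at or above the median signal, 38.2% were higher and 39.2% lower. Against IWP2 6 were higher and 15 (62.5%) lower, beside 35.2% and 26.9% of all genes, with a median of -0.34. Bub1b (0.85) and Ttk (0.78) were higher than with vehicle and Mki67 (-0.66) and Cenpf (-0.54) lower. The difference between the lists was not tested. Their windows also held other letters, TTTGAA in 15 of 20 and E2F letters in 1 of 20. Of 16 G1 cyclins, kinases and inhibitors, 3 rose and 7 fell with IWP2 (18.8% and 43.8%, against 16.6% and 16.8% of all genes). Cdkn2b (-2.93) fell the most and Cdkn1b (0.66) rose the most.

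**Figure D4:**
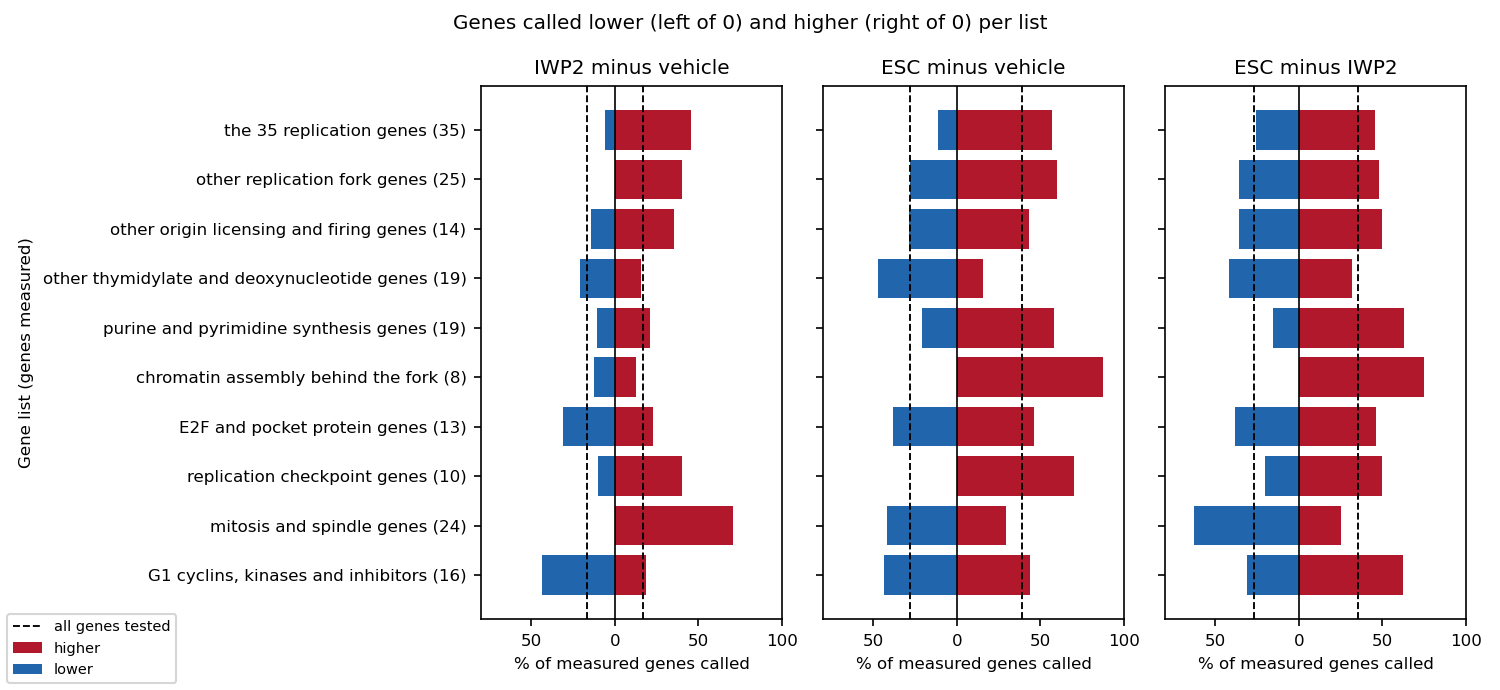
Bars give the share of each list's measured genes called higher (right) or lower (left) in a comparison, and dashed lines the shares of all 18193 genes. The replication genes reach 45.7% higher with IWP2 and 57.1% in ESCs over vehicle, while the mitosis genes reach 70.8% with IWP2 and point mostly left against IWP2 in ESCs.

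Pola1 is the X-linked gene of the 35, and X-linked genes as a class were higher in ESCs. Y-linked Eif2s3y was at 9.83 ± 0.029 and 9.82 ± 0.068 in vehicle and IWP2 EpiSCs and at 2.30 ± 0.211 in ESCs (mean ± SD, n = 3), the last below the lower quartile of all values. Xist, the RNA that coats an inactive X chromosome, was at 5.14 ± 0.204, 6.73 ± 0.315 and 9.07 ± 0.071. Of 617 X-linked genes tested, 58.7% were higher in ESCs than with vehicle, against 38.0% of 17404 autosomal genes, and their medians were 0.32 and 0.11 log2. Among genes with a group mean at or above the median signal the medians were 0.51 for 405 X-linked and -0.01 for 11458 autosomal genes. Of those 405, 51 had a difference at or above that of Pola1, as did 400 of the 11458.

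Protein-coding neighbours of Pola1 that were measured were also higher in ESCs than with vehicle. The next 5 genes at higher coordinates were Pcyt1b (1.86 ± 0.075), Pdk3 (1.31 ± 0.057), Zfx (0.48 ± 0.067), Eif2s3x (0.72 ± 0.057) and Klhl15 (1.18 ± 0.072), and none of the 5 at lower coordinates was measured. Of the other lists, Prps1, Prps2, Hprt and Ctps2 are X-linked. In ESCs all 4 were higher than with vehicle, by 1.23, 0.88, 1.02 and 0.39. With IWP2, in cells that had Y-linked RNA in both groups, Prps1 (0.60) and Prps2 (0.43) rose and Pola1 was not called. The part of the X chromosome in the Pola1 difference was not tested.

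**Figure D5:**
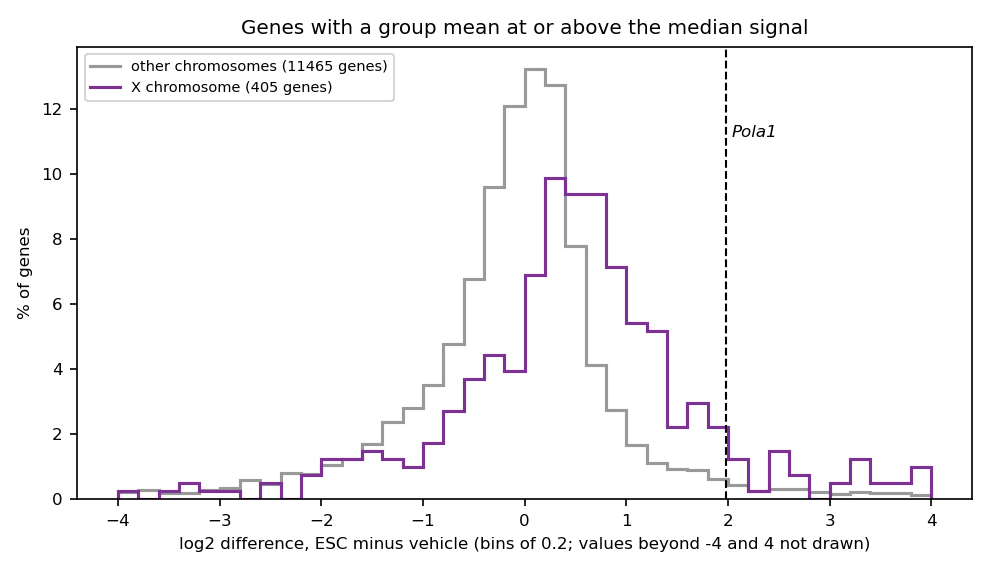
Histograms of the ESC minus vehicle log2 difference (bins of 0.2) for 405 X-linked genes and 11465 genes of other chromosomes, among genes with a group mean at or above the median signal. The X-linked distribution lies farther right, and the dashed line marks Pola1 at 1.98.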

How the data were processed

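RNA of 9 cultures was measured on 9 arrays. The authors deposited log2 signals of 45101 probe sets, made with RMA per the submitters' processing notes, which also list limma, both without a version. The platform annotation gave 1 gene symbol to 34945 probe sets, several to 932 and none to 9160, and 64 control probe sets were left out. Each gene was represented by its brightest probe set.

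All 18193 genes were fitted over the 3 groups with limma 3.58.1 in R 4.3.3 (lmFit and eBayes, 6 residual degrees of freedom), with Benjamini-Hochberg adjustment over all of them. The fit was tested on simulated data. The members and gene lists were chosen with earlier results of these data known. Array values are given for members with the largest rise or fall of their role, or alone in their direction, and up to 3 genes a direction are named from each list. Pcna was added after its values were seen. Alternatives were the probe set rule, scaling, filter, offset, variance model, arrays fitted, replicate block and thresholds. RMA makes array distributions alike, so a shift of all genes cannot be seen.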

Additional observations from a re-analysis of the deposited data

How the results depend on the processing

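The members called higher or lower were counted again under each alternative. With IWP2, 10 to 14 members were higher and 1 to 2 lower in the fits that left out 1 array, with 2463 to 3005 of all genes higher and 2444 to 2960 lower. For ESC minus vehicle these fits gave 17 to 21 members higher and 2 to 4 lower (6311 to 7063 and 4766 to 5052 genes), and for ESC minus IWP2 15 to 16 and 8 to 9 (5817 to 6419 and 4682 to 4914 genes). The 1 lower member with IWP2 that remained, Orc2, was also alone after median centring of arrays, after cyclic loess, with only the 6 arrays compared, with the replicate block and at an adjusted p under 0.01. Median centring gave 4677 genes higher with IWP2 and 2 members lower for ESC minus vehicle. At an adjusted p under 0.01, 8 members rose with IWP2 (1847 genes higher, 2039 lower), and 2 were lower for ESC minus vehicle. Requiring at least 0.5 log2 left 1 member higher and 0 lower with IWP2 (912 and 1181 genes), 11 and 1 for ESC minus vehicle (2959 and 3212 genes), and 8 and 3 for ESC minus IWP2 (3113 and 3248 genes). These last settings ask for more by construction, and for the others the cause was not tested. With the mean of all probe sets, Orc4 turned to -0.026 with IWP2 and 0.065 for ESC minus IWP2, neither called, and Cdc45 to 0.229 for ESC minus IWP2, where it was then called. Replicate numbers did not pair the arrays: deviations of arrays with the same number correlated at -0.06 to 0.05, and with the replicate block 14 members were higher and 1 lower with IWP2, 20 and 3 for ESC minus vehicle and 15 and 9 for ESC minus IWP2. The 3 arrays a group limit the precision, with a median standard error of 0.082 log2.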
